A study of Mus musculus with 18 samples.

Results

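The mir-130 and mir-301 family is a set of 4 miRNA hairpins, mmu-mir-130a, mmu-mir-130b, mmu-mir-301a and mmu-mir-301b, whose 3′ arms carry the same seed. The members were taken by name from a table of 1006 precursor entries. Of the 4, 3 passed the filter on low counts and were tested among 273 entries; mir-130a, with 0 to 8 counts per library, did not pass. The libraries were made from Baf3 cells, a mouse pro-B line that depends on interleukin-3. All cells carried fluorescent reporters of altered miR-15a and miR-16 and had been transduced with Cas9 and a guide RNA and selected with puromycin. The guides targeted Rag1 (genotype Rag1_KO, called control), Safb1 and Safb2 together (called SAFB) or Erh (called ERH). Each genotype comprised 2 populations, edited with different guides, and each population was sequenced as 3 libraries labelled batch 1 to 3. Knockout populations were polyclonal and had been sorted for loss of repression of the miR-15a reporter, so they were selected on a miRNA readout. How control cells were sorted is not given in the sources used here. Libraries of one population are not independent edits, so p-values over the 6 libraries of a genotype measure mainly the spread between libraries.

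A miRNA finds its target mRNAs mainly through its seed, so hairpins of one seed family repress overlapping sets of mRNAs. In the nucleus the Microprocessor, formed by Drosha and DGCR8, cuts hairpins from primary transcripts, and some hairpins are cut poorly unless a well-cut neighbour lies on the same transcript, which is called cluster assistance. SAFB proteins and ERH have been linked to this help. The family holds both arrangements, since mir-130b and mir-301b are neighbours while mir-130a and mir-301a lie alone.

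The mature sequences below, from RefSeq on build GRCm38.p6, are shown because they define the family and tell how far its members could share reads. Capitals mark the seed, bases 2 to 8 from the 5′ end.
miR-130a-3p: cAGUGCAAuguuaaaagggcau
miR-130b-3p: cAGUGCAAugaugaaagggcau
miR-301a-3p: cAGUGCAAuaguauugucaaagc
The 3 share the seed AGUGCAA. miR-130a-3p and miR-130b-3p differ at 2 of 22 positions, counted from the 5′ end, U11A and A13G. The mir-301a and mir-301b hairpins, aligned end to end, had 70.7% identical columns and a longest shared run of 16 bases, the highest of the 6 pairs of members. Their 5′ arms differ at 3 of 22 positions, U10A, U11G and A12G, and also share a seed, CUCUGAC. For miR-301b-3p the RefSeq table has no mature entry. The mir-301b hairpin, shown whole below, holds the bases of miR-301a-3p except that a g replaces the a in the ua after the seed. In their 3′ arms mir-301a and mir-301b thus differ less than mir-130a and mir-130b do. The deposited counts are per hairpin with both arms together, and how reads matching several hairpins were assigned is not given in the sources used here. How far counts of mir-130a contain reads of mir-130b, or counts of mir-301b reads of mir-301a, was not tested. The same seed occurs in 4 other mature miRNAs of the RefSeq table, miR-130c, miR-721, miR-6341 and miR-6389. Entries mir-130c and mir-6389 had 0 counts in all libraries, mir-6341 had at most 1, and no entry was named mir-721.

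The clustered hairpins are shown whole, as RefSeq lists them, since the comparison of these neighbours carries the main result. Capitals mark the seed of the 3′ arm.
mir-301b: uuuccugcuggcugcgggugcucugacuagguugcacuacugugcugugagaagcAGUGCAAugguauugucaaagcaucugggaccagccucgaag
mir-130b: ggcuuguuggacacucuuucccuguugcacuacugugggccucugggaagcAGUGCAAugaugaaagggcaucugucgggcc
mir-301b lies at chr16:17124400-17124496 and mir-130b at chr16:17124061-17124142, both on the minus strand of GRCm38, so mir-301b is transcribed first and 257 bases separate them. GENCODE M21 places both in intron 1 of the protein-coding gene 2610318N02Rik, on the same strand and outside its annotated exons. mir-301a (gene symbol Mir301) lies at chr11:87113004-87113089 on the plus strand in intron 1 of Ska2, a gene of the spindle and kinetochore complex. mir-130a lies at chr2:84741115-84741178 on the minus strand in no annotated host gene. No other hairpin lay within 10 kb of mir-130a or mir-301a on their strand, the nearest to mir-301a being Mir142 at 643774 bases. The build used by the authors is not given in the sources used here.

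The hairpins differed in predicted stability. Folded with RNAfold, mir-130b had a minimum free energy of -0.37 kcal/mol per base, mir-301b -0.40, mir-301a -0.43 and mir-130a -0.35. The median over 254 hairpins of the tested entries was -0.42, and 24.4% of these had a higher energy per base, meaning a weaker fold, than mir-130b, against 40.9% for mir-301b and 53.9% for mir-301a. The terminal loop had 3 bases in mir-130b, 6 in mir-301b, 8 in mir-301a and 15 in mir-130a, with a median of 6. Inside the stem, 21 bases of mir-130b, 25 of mir-301b, 16 of mir-301a and 4 of mir-130a were unpaired, with a median of 13. A count of another kind, of all unpaired bases in the mature arms, which takes in arm bases in the loop or at the ends, gave 9 in mir-130b, 9 in mir-301a and 6 in mir-130a. These are descriptions of the listed sequences, whose lengths differ from 64 to 97 bases, and not of the flanks that Microprocessor also reads.

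Libraries held 2699323 to 4470073 miRNA counts. Levels are given as CPM (counts brought to a common library total, after trimmed mean of M-values or TMM scaling), which makes them levels relative to the other miRNAs and not amounts per cell. A lower level of a miRNA and higher levels of the others cannot be told apart on this scale. The targeted genes are not miRNAs, so these counts do not check the knockouts. The labelled cell type was checked on a list of 7 haematopoietic miRNAs. Of these, 6 had an entry of the listed name and were tested. The 7th, mir-142, was entered as mir-142a and is not in the sums below. Averaged over all libraries, mir-142a had 136047 CPM. Its log2 fold change was -0.062 in SAFB (edgeR adjusted p = 0.378) and -0.23 in ERH (edgeR adjusted p = 0.00162). In control mir-155, mir-223, mir-181a, mir-17 and mir-146a averaged 1754, 9612, 3114, 2050 and 1921 CPM. The lymphocyte miRNA mir-150 was low, at 19.3 CPM in control, 4.91 in SAFB and 9.29 in ERH. The 6 together had 16464 to 22003 CPM in control, 23963 to 30277 in SAFB and 15699 to 21500 in ERH. The higher sum of these 6 in SAFB came from mir-223, at 17416 CPM, and mir-181a, at 4662 CPM. The SAFB means of mir-155, mir-17, mir-146a and mir-150 were below control, the first 3 at 1609, 1228 and 1322 CPM. A list of 7 miRNAs of non-haematopoietic tissues summed to 26.5 to 42.3 CPM in control, 78.9 to 140.3 in SAFB and 242.8 to 408.1 in ERH libraries, mostly mir-9 in SAFB and ERH. mir-124 and mir-133a of this list had 0 counts in control. The part of these differences in the changes below was not tested; the members' ratios to each other are given beside them.

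mir-130b was the member that fell most. Its level in the 6 control libraries was 1168, 1186 and 1083 CPM with guide 1 and 1027, 1111 and 901 CPM with guide 2 (batches 1 to 3). In SAFB libraries it was 197.1, 230.1 and 206.3 CPM with guide 1 and 211.2, 204.1 and 202.0 CPM with guide 2. In ERH libraries it was 210.6, 180.6 and 180.5 CPM with guide 1 and 171.9, 225.1 and 187.8 CPM with guide 2. Every knockout library lay far below every control library, and both guides of a genotype gave similar levels. Averaged over 6 libraries, mir-130b had 1079 ± 104.8 CPM (SD) in control, 208.5 ± 11.6 in SAFB and 192.7 ± 20.6 in ERH. The log2 fold change was -2.37 in SAFB (SE 0.087, 5.18-fold lower, edgeR adjusted p = 7.73e-17) and -2.49 in ERH (SE 0.087, 5.60-fold lower, adjusted p = 5.28e-17). Both knockouts are set against the same control libraries. Within batches the difference ran from -2.42 to -2.27 in SAFB and from -2.52 to -2.42 in ERH. Among the 273 tested entries its fold change was the 10th lowest in SAFB and the 5th lowest in ERH.

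**Figure D1:**
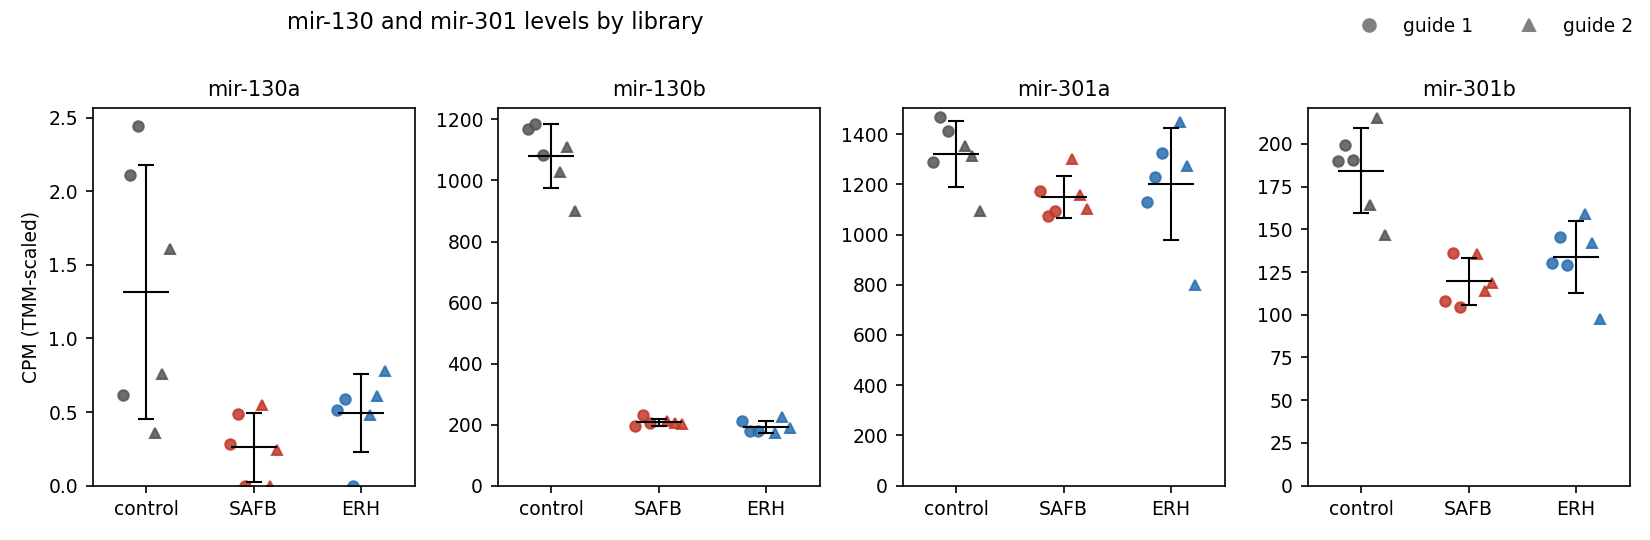
Level of each member in the 18 libraries, in TMM-scaled CPM from 0 on a separate linear axis for each member; circles are guide 1, triangles guide 2, and bars give the mean and SD of 6 libraries. The knockout libraries of mir-130b lie at 171.9 to 230.1 CPM against 901 to 1186 in control, whereas mir-301a overlaps between genotypes and mir-130a reaches at most 2.44 CPM.

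mir-301b, the neighbour on the same transcript, fell far less. Control libraries had 189.9, 199.3 and 190.5 CPM with guide 1 and 164.1, 215.0 and 146.4 CPM with guide 2. SAFB libraries had 108.2, 136.1 and 104.4 CPM with guide 1 and 135.6, 114.1 and 118.3 CPM with guide 2, all below the lowest control library. ERH libraries had 130.6, 145.7 and 128.9 CPM with guide 1 and 159.2, 141.8 and 97.4 CPM with guide 2, and the highest of them overlapped the control range. Averaged over 6 libraries, mir-301b had 184.2 ± 24.8 CPM (SD) in control, 119.5 ± 13.5 in SAFB and 133.9 ± 21.0 in ERH. The log2 fold change was -0.62 in SAFB (SE 0.12, 1.54-fold lower, edgeR adjusted p = 0.000106) and -0.46 in ERH (SE 0.12, 1.37-fold lower, adjusted p = 0.00199). Within batches it ran from -0.73 to -0.54 in SAFB and from -0.57 to -0.29 in ERH. The call in ERH was lost with total count scaling (-0.16, adjusted p = 0.237), with spike-in scaling (-0.15, adjusted p = 0.735) and without the control guide 1 population (-0.33, adjusted p = 0.0842). It was also lost when counts of mir-301a and mir-301b, which could share reads, were summed into 1 entry (-0.18, adjusted p = 0.168). In SAFB the summed entry was still called, but at -0.25 (edgeR adjusted p = 0.0464). Control libraries held 25101 counts of mir-301a and 3488 of mir-301b, so the sum mainly follows mir-301a. The total count and spike-in scalings moved the median of all tested entries to 0.24 and 0.23, from -0.061 with TMM, and relative to this median mir-301b was at -0.40, -0.38 and -0.40 under total, spike-in and TMM scaling.

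mir-301a, the solitary member with the most reads, was not called in either knockout. Its level was 1288, 1470 and 1413 CPM with control guide 1 and 1351, 1312 and 1093 CPM with control guide 2. It was 1174, 1075 and 1092 CPM with SAFB guide 1 and 1300, 1156 and 1102 CPM with SAFB guide 2. With ERH guide 1 it was 1131, 1227 and 1324 CPM, and with ERH guide 2 it was 1448, 1273 and 797 CPM. The genotypes overlapped, and the ERH guide 2 library of batch 3 had the lowest level of all 18. Averaged over 6 libraries, mir-301a had 1321 ± 130.2 CPM (SD) in control, 1150 ± 83.0 in SAFB and 1200 ± 223.6 in ERH. The log2 fold change was -0.20 in SAFB (95% interval -0.42 to 0.018, edgeR adjusted p = 0.11) and -0.14 in ERH (95% interval -0.36 to 0.080, adjusted p = 0.285). Under total count and spike-in scaling the sign in ERH turned, to 0.16 and 0.18, while relative to the median of all entries it was -0.078 with TMM, -0.076 and -0.045. Without the ERH guide 2 library of batch 3 the fold change in ERH was 0.0079, and without the SAFB guide 1 population that in SAFB was 0.019. Summed with mir-301b into 1 entry, mir-301a was called in SAFB (-0.25, edgeR adjusted p = 0.0464) and not in ERH (-0.18, adjusted p = 0.168).

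Counted over the family, mir-130b and mir-301b were called lower in each knockout, mir-301a in none, and mir-130a was not tested. Over all entries 25.3% were called lower in SAFB and 27.5% in ERH. The split depended on scaling: in ERH 72 entries were called higher and 75 lower with TMM, 108 and 33 with total counts, and 72 and 19 with spike-in scaling, and in SAFB 84 and 69 with TMM and 44 and 58 with spike-in scaling. All SAFB libraries lay below all control libraries for 17.2% of entries, among them mir-130b and mir-301b, and all ERH libraries for 17.9%, among them mir-130b.

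**Figure D2:**
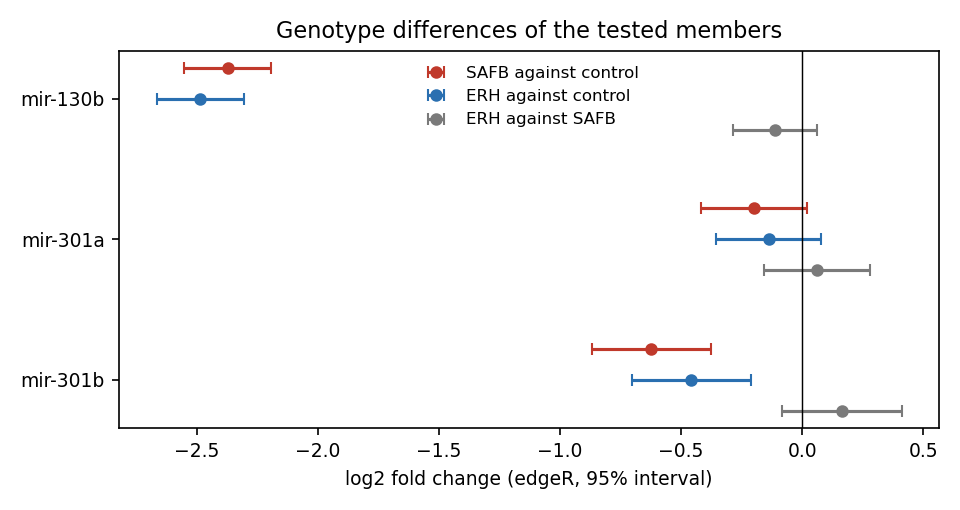
Log2 fold changes of the 3 tested members with 95% intervals from the edgeR fit, for SAFB against control, ERH against control and ERH against SAFB. mir-130b lies at -2.37 and -2.49 in the knockouts and mir-301b at -0.62 and -0.46, while the intervals of mir-301a and of every difference between the knockouts include 0.

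mir-130a, whose mature 3′ arm differs from that of mir-130b at 2 positions, was close to the limit of detection. Control libraries had 2, 8, 7, 1, 2 and 6 counts, SAFB libraries 1, 2, 0, 2, 0 and 1, and ERH libraries 2, 2, 0, 2, 2 and 3. Summed over 6 libraries these were 26 counts in control (95% exact Poisson interval 17.0 to 38.1), 6 in SAFB (2.20 to 13.1) and 11 in ERH (5.49 to 19.7), where intervals cover counting error only. The intervals of control and SAFB do not overlap, and those of control and ERH do. In a fit without the filter the log2 fold change of mir-130a was -2.20 in SAFB (edgeR adjusted p = 0.0579) and -1.38 in ERH (adjusted p = 0.243), neither called. The value in SAFB is about as large as that of mir-130b and rests on 6 and 26 counts. Its counts were 0.127% of those of mir-130b in control, 0.128% in SAFB and 0.265% in ERH. With 2 differing bases between their 3′ arms, reads of mir-130b entered under mir-130a and a low level of mir-130a itself cannot be told apart here.

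Dividing the counts of one member by those of another in the same library removes the scaling. The ratio tells whether the counts of neighbours on one transcript, or of a clustered member and a solitary one, changed alike. It does not remove reads of mir-301a that may be entered under mir-301b, whose part in these ratios was not tested. Counts of mir-301b were 13.9% of those of mir-301a in control, 10.5% in SAFB and 11.2% in ERH. For the neighbours, mir-301b had 0.160 to 0.193 counts per count of mir-130b in control, 0.506 to 0.642 in SAFB and 0.519 to 0.926 in ERH libraries, with no overlap between control and either knockout. On the log2 scale the control libraries averaged -2.56 ± 0.10 (SD, n = 6), the SAFB libraries -0.81 ± 0.12 and the ERH libraries -0.53 ± 0.30. It rose by 1.75 in SAFB and by 2.02 in ERH, each with an exact two-sided permutation p of 0.0022, which is the lowest possible with 924 arrangements (adjusted 0.0049 over 9 ratio tests). Within batches the rise was 1.88, 1.67 and 1.69 in SAFB and 2.23, 1.98 and 1.85 in ERH. So mir-130b, at 5.17 to 6.26 times the counts of its neighbour in control, was at 1.08 to 1.98 times in the knockouts.

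**Figure D3:**
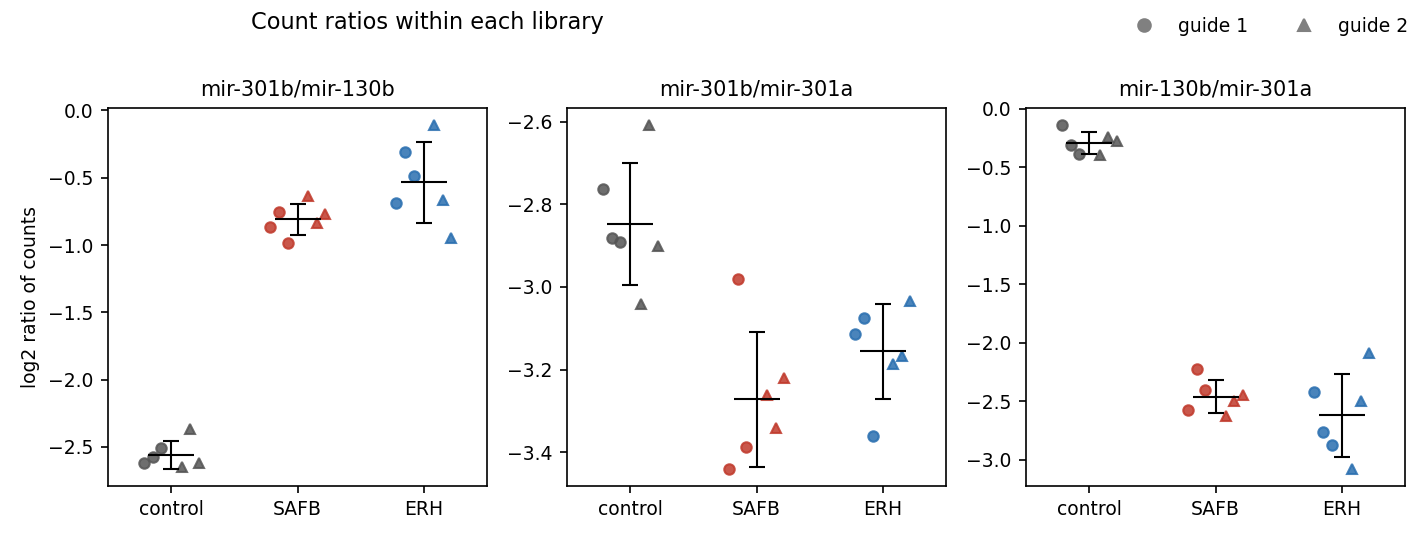
Log2 ratio of counts within each library for mir-301b over mir-130b, mir-301b over mir-301a and mir-130b over mir-301a; circles are guide 1, triangles guide 2, bars the mean and SD of 6 libraries, and each panel has its own vertical axis. The left and right ratios separate both knockouts from control, whereas mir-301b over mir-301a shifts by -0.42 and -0.31 with overlap.

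Set against the solitary mir-301a, both clustered members were lower in the knockouts. The log2 ratio of mir-130b to mir-301a went from -0.29 ± 0.095 in control to -2.46 ± 0.14 in SAFB and -2.62 ± 0.36 in ERH (SD over 6 libraries), differences of -2.17 and -2.33 (exact permutation p = 0.0022, adjusted 0.0049, each). The log2 ratio of mir-301b to mir-301a went from -2.85 ± 0.15 to -3.27 ± 0.16 and -3.16 ± 0.12. Its differences, -0.42 in SAFB and -0.31 in ERH, were smaller and the libraries of the genotypes overlapped (exact permutation p = 0.0043, adjusted 0.0065, each). Within batches they ran from -0.45 to -0.41 in SAFB and from -0.37 to -0.25 in ERH. Without the ERH guide 1 population the ERH difference was -0.28 (adjusted exact permutation p = 0.0714). Counting each population once, 2 against 2, no exact permutation p can fall below 0.333. The ratios show unequal change of the counts entered under each member. They do not show that mir-301a itself stayed level.

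The summed level of the family was lower in the knockouts, by an amount that in ERH depended on the scaling, and its make-up differed. The 4 members together had 2586 ± 240.9 CPM (SD, n = 6) in control, 1478 ± 88.1 in SAFB and 1527 ± 240.3 in ERH. The highest sum in a knockout library, 1780 CPM, was below the lowest in control, 2141 CPM. With TMM the mean was 42.8% below control in SAFB and 40.9% in ERH. As a plain share of the miRNA counts it was 41.2% and 27.3% below, and relative to the spike-in counts 51.7% and 26.3% below. The highest ERH library overlapped the control range only on the spike-in scale, where it stood at 112.4 against a lowest control library of 80.8, with the control mean set to 100%. In SAFB mir-130b accounted for 78.6% of the TMM-scaled difference in the sum. In ERH its share was 83.7% with TMM, but on plain counts its drop of 776.4 CPM exceeded the 651.4 CPM by which the sum was lower, since mir-301a was higher in ERH (control minus ERH, -143.4 CPM; not called). In control mir-301a supplied 51.1% ± 1.69 of the family's reads, mir-130b 41.7% ± 1.42 and mir-301b 7.11% ± 0.566. In SAFB mir-130b supplied 14.1% ± 1.11 and mir-301a 77.8% ± 1.71, and in ERH 12.9% ± 2.75 and 78.2% ± 2.91. Shares of reads depend on how well each RNA is ligated and amplified, so their order is not one of molecules.

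**Figure D4:**
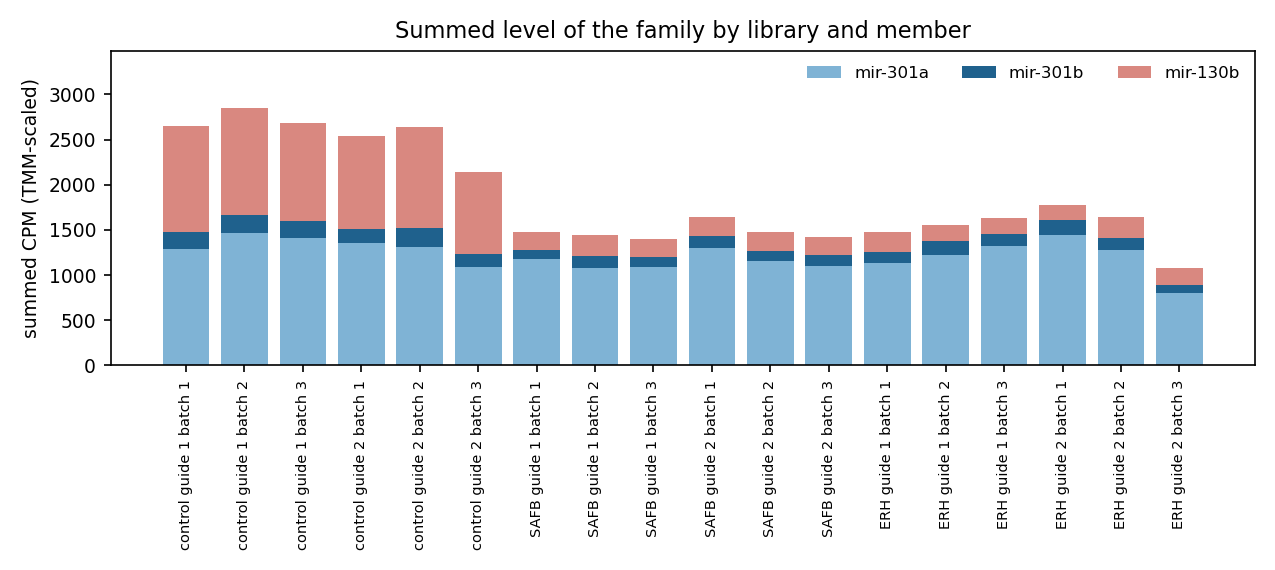
Summed TMM-scaled CPM of mir-301a, mir-301b and mir-130b, stacked, in each of the 18 libraries; mir-130a, at most 2.44 CPM, is not drawn. The mir-130b segment shrinks in all 12 knockout libraries, and the lowest control library, at 2141 CPM, stands above the highest knockout library, at 1780 CPM.

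The knockouts were also compared directly. None of the 3 tested members was called between ERH and SAFB, where 39.6% of all entries were, 65 higher in ERH and 43 lower. That split was 115 and 8 with total counts and 111 and 1 with spike-in scaling. The log2 difference, ERH minus SAFB, was -0.11 for mir-130b (95% interval -0.29 to 0.060, edgeR adjusted p = 0.312), 0.062 for mir-301a (-0.16 to 0.28, adjusted p = 0.682) and 0.16 for mir-301b (-0.082 to 0.41, adjusted p = 0.303). The ratio of mir-301b to mir-130b was higher in ERH by 0.27 (exact permutation p = 0.069, adjusted 0.089), with overlapping libraries. Without the ERH guide 2 library of batch 3 this difference was 0.36 (adjusted exact permutation p = 0.0111), and without the ERH guide 2 population 0.31 (adjusted p = 0.0306). mir-301a and mir-301b were called higher in ERH under total count scaling (0.32 and 0.43, edgeR adjusted p = 0.00856 and 0.00347). They were also called under spike-in scaling (0.62 and 0.74, adjusted p = 0.0203 and 0.00878). The median of all entries was 0.31 and 0.57 under these scalings. There mir-130b changed sign, to 0.15 and 0.44, and was not called (edgeR adjusted p = 0.184 and 0.124). With only entries of at least 100 mean counts, mir-130b was at 0.013, not called. mir-301b was then called at 0.28 (edgeR adjusted p = 0.0322).

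Populations edited with different guides were compared within each genotype. mir-130b averaged 211.2 ± 17.1 and 205.7 ± 4.83 CPM with SAFB guides 1 and 2, and 190.6 ± 17.3 and 194.9 ± 27.3 CPM with ERH guides 1 and 2 (SD, n = 3 each). For mir-130b the log2 difference, guide 2 minus guide 1, was -0.18 for control, -0.038 for SAFB and 0.031 for ERH (SE 0.12 each, edgeR adjusted p = 0.969, 0.932 and 0.991). No tested member was called between guides with TMM scaling, and of all entries 0% were called in control, 0% in SAFB and 0.366% in ERH, with 7, 10 and 18 entries at an unadjusted p under 0.05 in edgeR. Under spike-in scaling mir-130b was called between the ERH guides at 0.67 (edgeR adjusted p = 0.0273), where 110 entries were called, and not between the control guides at 0.49 (adjusted p = 0.079), where 96 were. In the 4 comparisons of a knockout population with a control population the change of mir-130b ran from -2.48 to -2.26 in SAFB and from -2.59 to -2.38 in ERH. That of mir-301b ran from -0.73 to -0.51 and from -0.54 to -0.37. It was called in all 4 SAFB comparisons but not in the ERH comparisons with control guide 2, at -0.37 with ERH guide 1 (edgeR adjusted p = 0.106) and -0.40 with ERH guide 2 (adjusted p = 0.074). That of mir-301a ran from -0.32 to -0.078 and from -0.25 to -0.028 and was called in none.

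The unequal change of mir-130b and mir-301b was set beside a list of other hairpins known to share a transcript. Of 31 other listed pairs, 27 had both hairpins tested. The log2 fold changes of mir-130b and mir-301b differed by 1.75 in SAFB, where 9 of the 27 differed by more, and by 2.03 in ERH, where 5 did. The median of the 27 was 0.54 in SAFB and 0.20 in ERH. The largest differences in SAFB were 4.91 between mir-191 and mir-425, 3.83 between mir-99a and let-7c and 3.83 between mir-15a and mir-16. In ERH they were 5.54 between mir-99a and let-7c, 3.78 between mir-99b and let-7e and 3.70 between mir-191 and mir-425. Entries such as mir-16 and let-7c sum several gene copies, so those pairs do not isolate 1 transcript. The entries mir-130b and mir-301b have 1 gene each. Reads of mir-301a, from another locus, could still be entered under mir-301b, which was not tested.

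**Figure D5:**
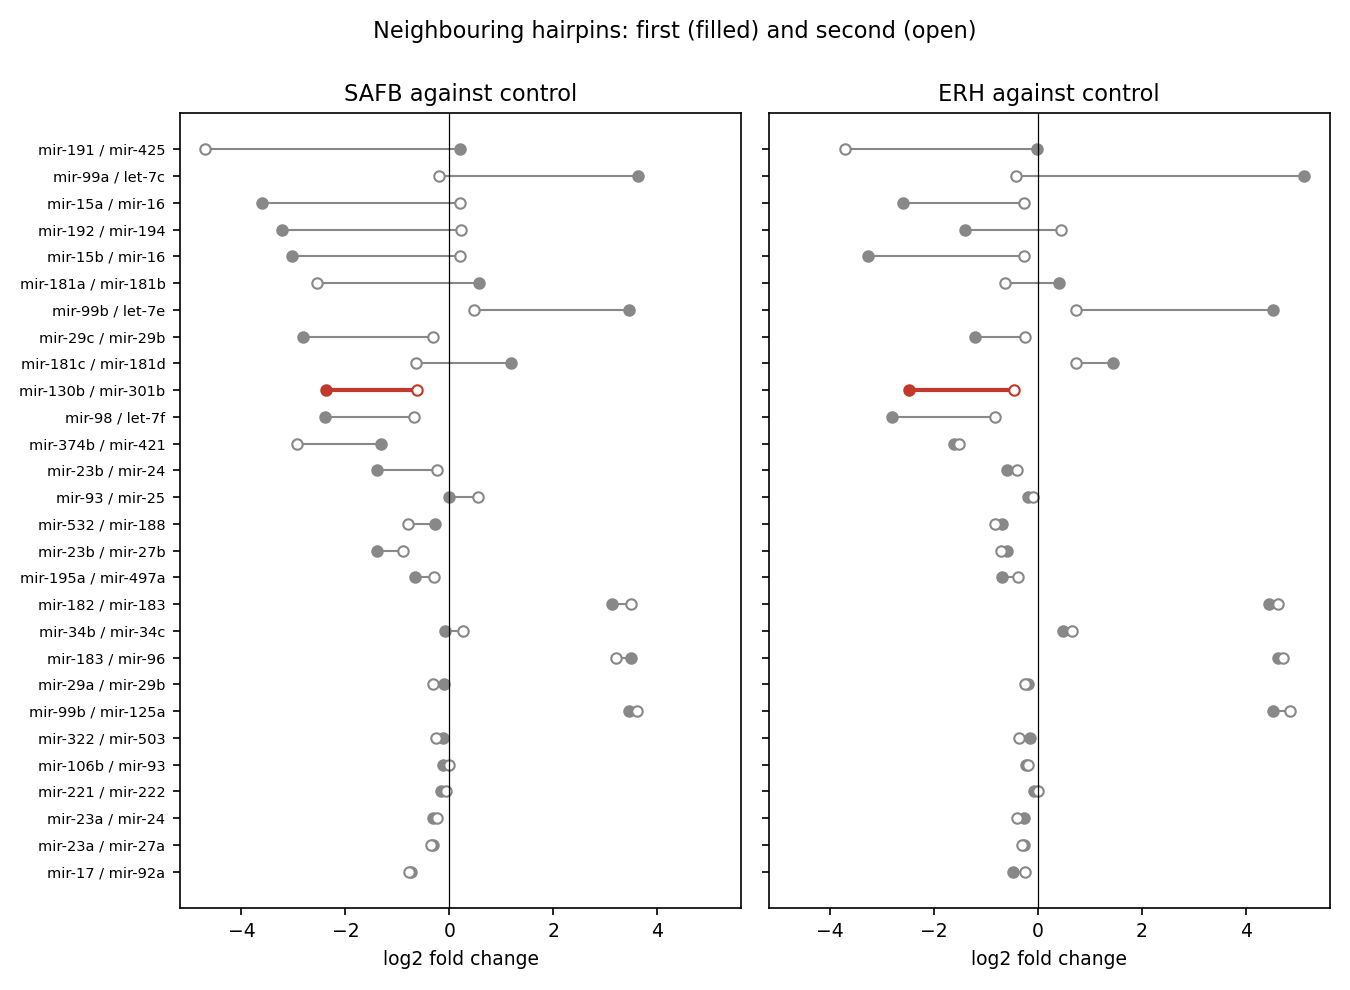
Log2 fold changes of the first (filled) and second (open) hairpin of 28 neighbouring pairs, for SAFB and ERH against control, ordered by the difference in SAFB. The pair mir-130b and mir-301b, in red, spans 1.75 in SAFB and 2.03 in ERH.

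The entries whose levels followed each member most closely over the 18 libraries were found by Pearson's r of log2 CPM, a description over libraries that share genotypes. For mir-130b they were mir-15b (r = 0.995), mir-98 (r = 0.987) and let-7f (r = 0.979). The log2 fold changes in SAFB and ERH were -3.02 and -3.26 for mir-15b, -2.39 and -2.81 for mir-98, and -0.68 and -0.83 for let-7f. mir-15b is the neighbour of mir-16-2, and mir-98 lies beside a let-7f gene. For mir-301b they were mir-19b (r = 0.907), mir-27b (r = 0.889) and mir-150 (r = 0.852), and for mir-301a mir-29b (r = 0.866), mir-322 (r = 0.831) and mir-497a (r = 0.813). Among the members r was 0.802 for mir-130b with mir-301b, 0.737 for mir-301a with mir-301b and 0.414 for mir-130b with mir-301a. By this measure mir-130b followed 30 other entries more closely than its neighbour.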

How the data were processed

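Small RNA was read from 18 libraries of 6 guide populations. Per the labels, 4 synthetic small RNAs were added to the total RNA before library preparation with the QIAseq miRNA kit. The deposited values are raw read counts per hairpin entry, not normalized; SAMtools is named in the submitters' processing notes, and the aligner, counter, build and any collapsing of duplicate reads are not given in the sources used here. Libraries held 2699323 to 4470073 miRNA counts, and intervals from counts cover counting error only.

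The model was edgeR 4.0.16 (R 4.3.3), quasi-likelihood: filterByExpr by population (minimum count 10), TMM scaling, 1 mean per genotype over all 18 libraries, Benjamini-Hochberg adjustment over 273 entries, calls at an adjusted p under 0.05. The 4 spike-in rows stayed out of library sizes and tests. Likeness used log2 CPM with a prior count of 2. Ratios were compared by exact permutation. The planned ratios with mir-130a were left out because it had 0 counts in 3 libraries, and mir-130b over mir-301a was added after seeing the data. Hairpins came from the RefSeq table (all 4 members and 228 of the 273 tested entries matched) and were folded with RNAfold 2.7.2. The count test and the permutation test were tried on simulated data.

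The batch number pairs libraries across populations, per the labels; the mean correlation of libraries, after removing population means, was 0.028 within a batch (45 pairs) and -0.014 across batches (90 pairs). The text names the 4 members, entries of the same seed, the 3 entries most like each tested member, the 3 most unequal pairs per knockout, and entries of the listed cell type markers. Members, lists and tests were chosen with earlier results of these data known. Alternatives were other scalings, filters, DESeq2 1.42.0, a batch block, sums per population, sums of close relatives, and leaving out each library or population.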

Additional observations from a re-analysis of the deposited data

How the results depend on the processing

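The fall of mir-130b in both knockouts and the fall of mir-301b in SAFB kept direction and call in each alternative run. Summed per population, mir-130b was at -2.32 in SAFB and -2.45 in ERH (edgeR adjusted p = 2.52e-08 and 1.44e-08). mir-301b in SAFB was then at -0.57 (adjusted p = 0.00294). Summed with mir-301a, mir-301b in SAFB was at -0.25 (adjusted p = 0.0464), against -0.62 in the main fit. The rise of mir-301b over mir-130b kept direction and call except with the mean per population, 2 against 2. There ratio differences kept their values (1.75 and 2.02 for mir-301b/mir-130b, -0.42 and -0.31 for mir-301b/mir-301a, -2.17 and -2.33 for mir-130b/mir-301a). Their exact permutation p was 0.333, the smallest that design allows. With the replicate block mir-130b was at -2.37 in SAFB and -2.48 in ERH, and the block changed no call of a member. For mir-301b in ERH the call was lost at -0.16 (total counts), -0.15 (spike-in), -0.33 (without control guide 1) and -0.18 (summed with mir-301a). mir-301a in ERH changed sign to 0.16 (total counts), 0.18 (spike-in) and 0.0012 (at least 100 mean counts), and in SAFB to 0.019 without SAFB guide 1; summed with mir-301b it was called in SAFB at -0.25 (adjusted p = 0.0464). ERH minus SAFB for mir-130b changed sign to 0.15, 0.44 and 0.013 under total counts, spike-in and at least 100 mean counts. For mir-301a it was called at 0.32 and 0.62 under total counts and spike-in, and changed sign to -0.057 without SAFB guide 1. For mir-301b it was called at 0.43, 0.74 and 0.28 under total counts, spike-in and at least 100 mean counts (0.28, adjusted p = 0.0322). Without ERH guide 2 the ERH minus SAFB difference of mir-301b/mir-130b was called at 0.31, and without ERH guide 1 that of mir-301b/mir-301a between ERH and control was lost at -0.28. The summed level of the family in ERH, 40.9% below control with TMM, was 27.3% below with total counts and 26.3% with spike-in, scalings chosen for this sum after seeing the data. The cause of these changes was not tested.

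Leaving out 1 library moved mir-301a in ERH against control between -0.13 and 0.0079 (positive without ERH guide 2 batch 3). In ERH against SAFB mir-301a moved between -0.0046 and 0.15 (negative without ERH guide 2 batch 1), and in SAFB against control between -0.18 and -0.10. ERH minus SAFB moved between -0.20 and -0.088 for mir-130b and between 0.10 and 0.24 for mir-301b. None of these was called. The ERH minus SAFB ratio difference moved between 0.19 and 0.36 for mir-301b/mir-130b and between 0.082 and 0.17 for mir-301b/mir-301a, the latter called without SAFB guide 1 batch 2. Spike-in scaling gave 91 calls in ERH against control (147 with TMM, of which 75 lower against 19), 102 in SAFB (153 with TMM), and 96 and 110 between the control and ERH guides (0 and 1 with TMM). With at least 100 mean counts the calls were 103 in SAFB, 100 in ERH and 75 between them, among 153 entries. mir-130a, at 0 to 8 counts, did not pass the filter on low counts. Whether greater depth would change this was not tested.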
